A study of Mus musculus with 4 samples.

Results

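Lineage-labelled AT1-like cells were cells of the sorted alveolar type 2 (AT2) lineage that held transcripts of alveolar type 1 (AT1) cells. Membership was set by 8 AT1 genes, Ager, Hopx, Rtkn2, Akap5, Aqp5, Clic5, Pdpn and Cav1. Members were thus chosen by these expression values. A cell with 500 or more genes and at most 20% mitochondrial UMIs was a member when these genes held 0.8% or more of its UMIs and at least 3 of the 8 were detected. Cells with 3 or more of 6 endothelial genes, or 2 or more of Msln, Upk3b and Dcn, were left out. The rule found 191 of 10756 cells in 4 libraries, and 8001 other cells had Sftpc at 2% or more of their UMIs and few markers of other cell types; these are called AT2-range cells below.

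The study profiled lungs of Sftpc-creER;Rosa26-mTmG mice by droplet 3′ single-cell RNA sequencing, with 1 library per group and 3 mice pooled in each. The 4 groups were 12-month-old mice 30 days after bleomycin, 3-month-old mice 30 days after bleomycin, 12-month-old mice given PBS and 3-month-old mice given PBS, the PBS libraries being labelled day 0. Injured mice had a single intratracheal dose of 0.8 U/kg bleomycin. All mice, PBS mice included, first received tamoxifen, which lets creER switch the reporter from membrane tdTomato to membrane GFP in cells that use the Sftpc promoter and in all their descendants. Cells were sorted as CD45-, CD31- and GFP+, so leukocytes and endothelial cells should be rare and cells that never used Sftpc absent. Because each group was a single pool and treatment went with day, differences between libraries have no replicate check, and treatment, day and library cannot be told apart; the 95% intervals given here cover counting error only.

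AT1 cells are very thin, spread over most of the gas-exchange surface and form the air side of the blood-air barrier. AT2 cells make surfactant and, after injury, can divide and flatten into AT1 cells, switching off surfactant genes and switching on genes for caveolae, junctions, basement membrane and endothelial growth signals. Bleomycin breaks DNA and is widely used to injure the mouse lung, and cells between the AT2 and AT1 states, rich in keratins and p53 targets, have been described after such injury. A label driven by Sftpc marks AT1 cells that came from AT2 cells, and any AT1 cell that used the Sftpc promoter when tamoxifen was given.

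Across the series, 10756 of 10911 barcodes passed the filter, between 2394 and 2993 per library, with total counts between 11381566 in the 3-month PBS library and 36960380 in the 12-month bleomycin library. Pairs of libraries shared 7 to 20 barcodes. Doublets were called as a preset number of cells with the highest Scrublet scores. These were 72 and 56 in the 12-month and 3-month bleomycin libraries and 63 and 48 in the 12-month and 3-month PBS libraries. No member was among them, which does not show that every member was a single cell. One count in the summed members stood for 1.62 CPM (the summed count over the members' total, on the usual scale) in the 12-month bleomycin library, 1.46 in the 3-month bleomycin library, 13.5 in the 12-month PBS library and 31.5 in the 3-month PBS library, so the PBS values are the coarser ones.

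With the cutoff at 0.8% of UMIs, AT1-like cells were more frequent in the bleomycin libraries. They numbered 65 of 2993 cells at 12 months after bleomycin, a share of 2.17% (95% Clopper-Pearson interval 1.68% to 2.76%), and 101 of 2624 at 3 months after bleomycin, 3.85% (3.15% to 4.66%). With PBS they numbered 20 of 2745 cells at 12 months, 0.729% (0.446% to 1.12%), and 5 of 2394 at 3 months, 0.209% (0.0678% to 0.487%). With a cutoff of 1%, the shares were 1.07% (0.732% to 1.51%) at 12 months and 2.97% (2.36% to 3.70%) at 3 months after bleomycin. With PBS they were 0.729% (0.446% to 1.12%) at 12 months and 0.167% (0.0455% to 0.427%) at 3 months. The intervals of bleomycin and PBS overlapped at 12 months with this cutoff. Depth differed between libraries, so every cell was also thinned to 3000 UMIs, which left 66 members of 2993 cells and 80 of 2510 in the 12-month and 3-month bleomycin libraries and 11 of 2424 and 7 of 2003 in the 12-month and 3-month PBS libraries. Cells under that depth were left out, 0 and 114 after bleomycin and 321 and 391 with PBS, at 12 and 3 months in each case. Among them were 10 of the 20 members of the 12-month PBS library and 14 of the 101 of the 3-month bleomycin library. The other 2 libraries lost 0 members in this way. Thinning therefore compared different sets of cells and does not settle the part of depth at 12 months.

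The members of the 4 libraries stood at different distances from the cutoff. The 8 genes held a median of 0.979% of UMIs in members of the 12-month bleomycin library, 1.61% in the 3-month bleomycin library, 4.22% in the 12-month PBS library and 1.44% in the 3-month PBS library; AT2-range cells had medians of 0.164% to 0.239%. Between 0.8% and 1% lay 33 of the 65 members of the 12-month bleomycin library, 23 of 101 of the 3-month bleomycin library, none of the 20 of the 12-month PBS library and 1 of 5 of the 3-month PBS library. Just under the cutoff, between 0.6% and 0.8%, lay 58 cells of the 12-month bleomycin library, 40 of the 3-month bleomycin library, 5 of the 12-month PBS library and 17 of the 3-month PBS library. All 20 members of the 12-month PBS library had 1.68% or more, and the highest single cell, at 9.04%, was among them.

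Members also differed in how much surfactant message they held. Sftpc, which encodes surfactant protein C and drives the label, took a median of 7.10% of UMIs in members at 12 months after bleomycin and 2.79% at 3 months after bleomycin, against 1.43% in members with PBS at 12 months and 3.64% at 3 months. The medians of AT2-range cells were 16.6% at 12 months and 16.8% at 3 months after bleomycin, and 15% at 12 months and 12.8% at 3 months with PBS. Cells with macrophage markers, which do not make Sftpc, had medians of 1.20% to 1.55%, and the median of members of the 12-month PBS library lay in that range. Members below 50% of the AT2-range median of their library, called Sftpc-low, numbered 38 of 65 and 67 of 101 in the 12-month and 3-month bleomycin libraries and 15 of 20 and 3 of 5 in the 12-month and 3-month PBS libraries. As shares of all cells that passed, Sftpc-low members made up 1.27% and 2.55% of the 12-month and 3-month bleomycin libraries and 0.546% and 0.125% of the 12-month and 3-month PBS libraries.

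**Figure D1:**
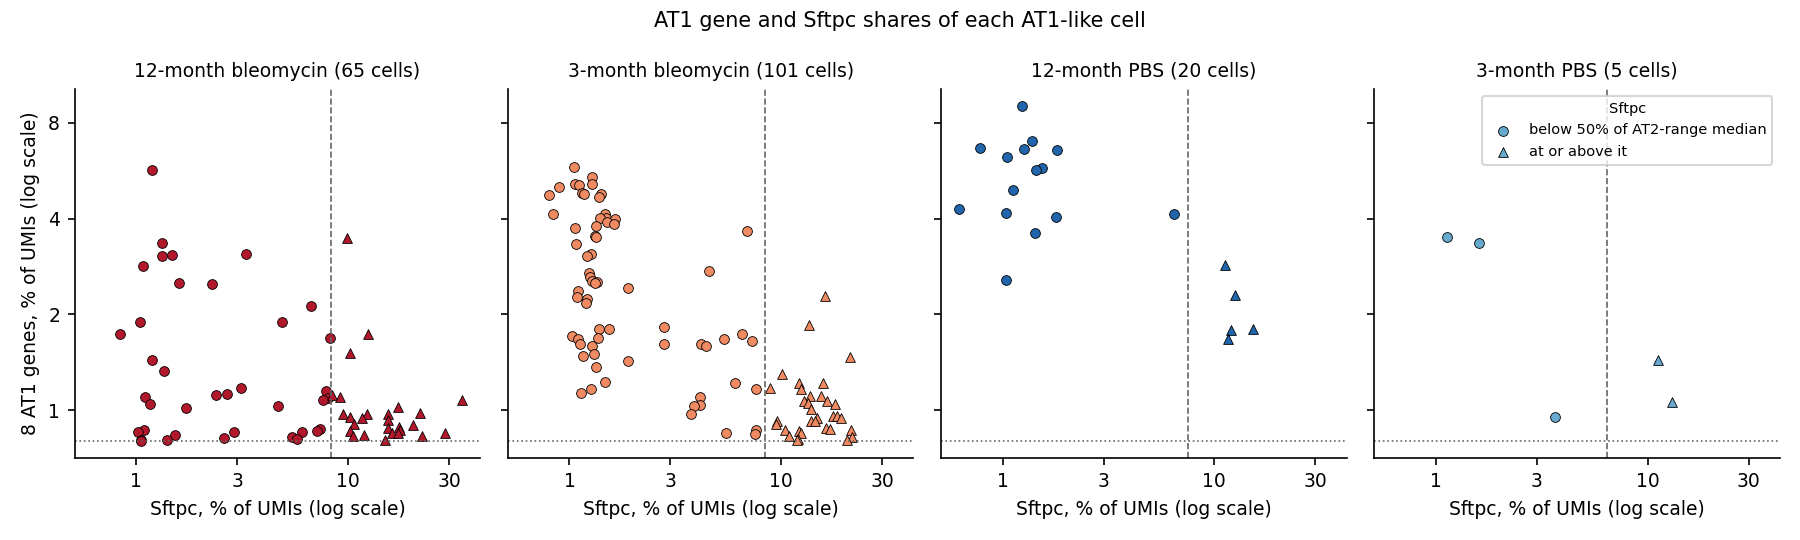
Each point is 1 AT1-like cell; the x axis is Sftpc and the y axis the 8 AT1 genes that set membership, both as percent of the cell's UMIs on log axes, with 1 panel per library (65, 101, 20 and 5 cells). Circles are Sftpc-low cells and triangles the others, the dashed line marks 50% of the AT2-range median of Sftpc and the dotted line the 0.8% cutoff. Many cells of the 12-month bleomycin library lie just above the cutoff, while all 20 cells of the 12-month PBS library lie at 1.68% or more.

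Of the 14 AT1 markers listed to check the label, 8 are the rule genes, whose level the choice of cells fixed. The other 6, Emp2, Vegfa, Spock2, Col4a3, Igfbp2 and Gramd2, summed to 983 CPM in members and 251 CPM in AT2-range cells of the 12-month bleomycin library, 1995 and 302 CPM in those of the 3-month bleomycin library, 7108 and 211 CPM in those of the 12-month PBS library, and 3056 and 275 CPM in those of the 3-month PBS library. None of the 6 was at 0 in members of any library, and each was higher in members than in AT2-range cells of every library. Cells with macrophage markers held 172 CPM of the 6 in the 12-month and 61.9 CPM in the 3-month bleomycin library, and 49.8 CPM in the 12-month and 59.3 CPM in the 3-month PBS library. In members the 5 B cell markers summed to 0 to 158 CPM, the 8 macrophage markers to 0 to 108 CPM, and the 3 mesothelial markers to 0 to 80.8 CPM. The 6 ciliated markers summed to 22.6 to 67.3 CPM, the 4 neutrophil markers to 2.91 to 63 CPM and the 5 T and NK cell markers to 0 to 54.9 CPM. The 8 endothelial markers summed to 0 to 37.2 CPM and the 7 mesenchymal markers to 0 to 16.2 CPM. The basal and erythroid markers were at 0. More than 1 marker of a leukocyte, endothelial, mesenchymal, ciliated or basal class was found in 29 of 65 members of the 12-month bleomycin library, most often B cell markers (16 members) and macrophage markers (7), as in 60.0% of the other 2928 cells of that library. It was found in 5 of 101 members of the 3-month bleomycin library, none of 20 of the 12-month PBS library and 1 of 5 of the 3-month PBS library. Airway club markers were the most abundant of these lists: Scgb1a1, Scgb3a2, Scgb3a1, Cyp2f2 and Bpifa1 summed to 23548 CPM in members at 12 months after bleomycin and to 4646 CPM at 3 months after bleomycin, against 2571 CPM with PBS at 12 months and 1669.6 CPM with PBS at 3 months. AT2-range cells held 5405 and 6974 CPM of them in the 12-month and 3-month bleomycin libraries. With PBS they held 9064 CPM at 12 months and 5285 CPM at 3 months. Only in the 12-month bleomycin library was the sum higher in members. One member of the 12-month bleomycin library held 70.8% of its members' Scgb1a1 UMIs, and only 3 members of that library and 1 of the 3-month bleomycin library had Scgb1a1 at 2% or more of UMIs.

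Members were next set against AT2-range cells of the same library, which describes what came with the 8 genes and is no test, since the rule drew the line between these cells. A gene was counted as higher or lower when the CPM of the summed cells differed at least 2-fold, with 50 CPM or more and a UMI in at least 20% of cells in the group where it was higher. Of 2035 genes counted in all 4 libraries, 165 were higher (8.11%) and 30 lower (1.47%) in members of every library. The median over all genes with 10 or more counts was itself above 0 in this contrast, between 0.31 and 1.28 on the log2 scale.

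Genes were ranked by their smallest difference over the 4 libraries, and the first 12 were led by 2 of the rule, Rtkn2 and Hopx, a homeodomain-only cofactor. Hopx had 1366 CPM in members and 36.2 CPM in AT2-range cells of the 12-month bleomycin library, 1479 and 32.6 CPM in those of the 3-month bleomycin library, 5909.6 and 48.9 CPM in those of the 12-month PBS library, and 3528 and 72.7 CPM in those of the 3-month PBS library. Outside the rule they were Pmp22, a tetraspan membrane protein, Sdpr, a cavin that shapes caveolae, Pxdc1, Fbln5, an elastic fibre protein, Cyp4b1, a cytochrome P450 of lung, and Timp3, a matrix-bound inhibitor of metalloproteinases. Timp3 had 438 CPM in members and 33.6 CPM in AT2-range cells of the 12-month bleomycin library, 625 and 22.2 CPM in those of the 3-month bleomycin library, 1979 and 15.1 CPM in those of the 12-month PBS library, and 945 and 24.8 CPM in those of the 3-month PBS library. Pmp22 had 144 CPM in members and 5.4 CPM in AT2-range cells of the 12-month bleomycin library, 321 and 6.67 CPM in those of the 3-month bleomycin library, 2086 and 8.74 CPM in those of the 12-month PBS library, and 567 and 8.06 CPM in those of the 3-month PBS library. In both genes, members were above AT2-range cells in every library, with the highest member level in the 12-month PBS library.

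AT1 genes outside the rule were also higher in members in each library. Of 12 genes for membrane proteins, caveolae and channels, 9 were higher in members at 12 months after bleomycin (where 10.9% of all 2604 genes counted were higher), 12 at 3 months after bleomycin (18.2% of 2819), 12 with PBS at 12 months (41.4% of 3024) and 11 with PBS at 3 months (47.9% of 3400). Of 12 matrix and basement membrane genes, 5 were higher at 12 months and 12 at 3 months after bleomycin, and 11 at 12 months and 10 at 3 months with PBS. Of 10 secreted signals, 5 were higher at 12 months and 6 at 3 months after bleomycin, and 7 at each age with PBS. Among the matrix genes, Col4a3, a chain of the alveolar basement membrane collagen, had 32.3 CPM in members and 3.32 CPM in AT2-range cells of the 12-month bleomycin library, 99.1 and 3.14 CPM in those of the 3-month bleomycin library, 229 and 5.07 CPM in those of the 12-month PBS library, and 126 and 5.31 CPM in those of the 3-month PBS library. Vegfa, which AT1 cells make for the capillaries beneath them, had 123 CPM in members and 34.1 CPM in AT2-range cells of the 12-month bleomycin library, 287 and 55.1 CPM in those of the 3-month bleomycin library, 915 and 42.4 CPM in those of the 12-month PBS library, and 473 and 53.5 CPM in those of the 3-month PBS library.

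Surfactant and AT2 identity genes were the lower ones. Of 19, 12 were at least 2-fold lower in members than in AT2-range cells at 12 months after bleomycin (2.84% of all genes counted), 11 at 3 months after bleomycin (2.84%), 15 with PBS at 12 months (7.74%) and 14 with PBS at 3 months (7.85%), and none was higher in any. The lowest named genes were Lyz1 and Lyz2, the lysozymes, Hc, complement C5, Cxcl15, lungkine, Sftpa1, surfactant protein A, Nrn1, Nupr1 and Apoc1. Sftpa1 had 10870 CPM in members and 31068 CPM in AT2-range cells of the 12-month bleomycin library, 10334 and 31998 CPM in those of the 3-month bleomycin library, 11738 and 32549 CPM in those of the 12-month PBS library, and 8632 and 27851 CPM in those of the 3-month PBS library.

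**Figure D2:**
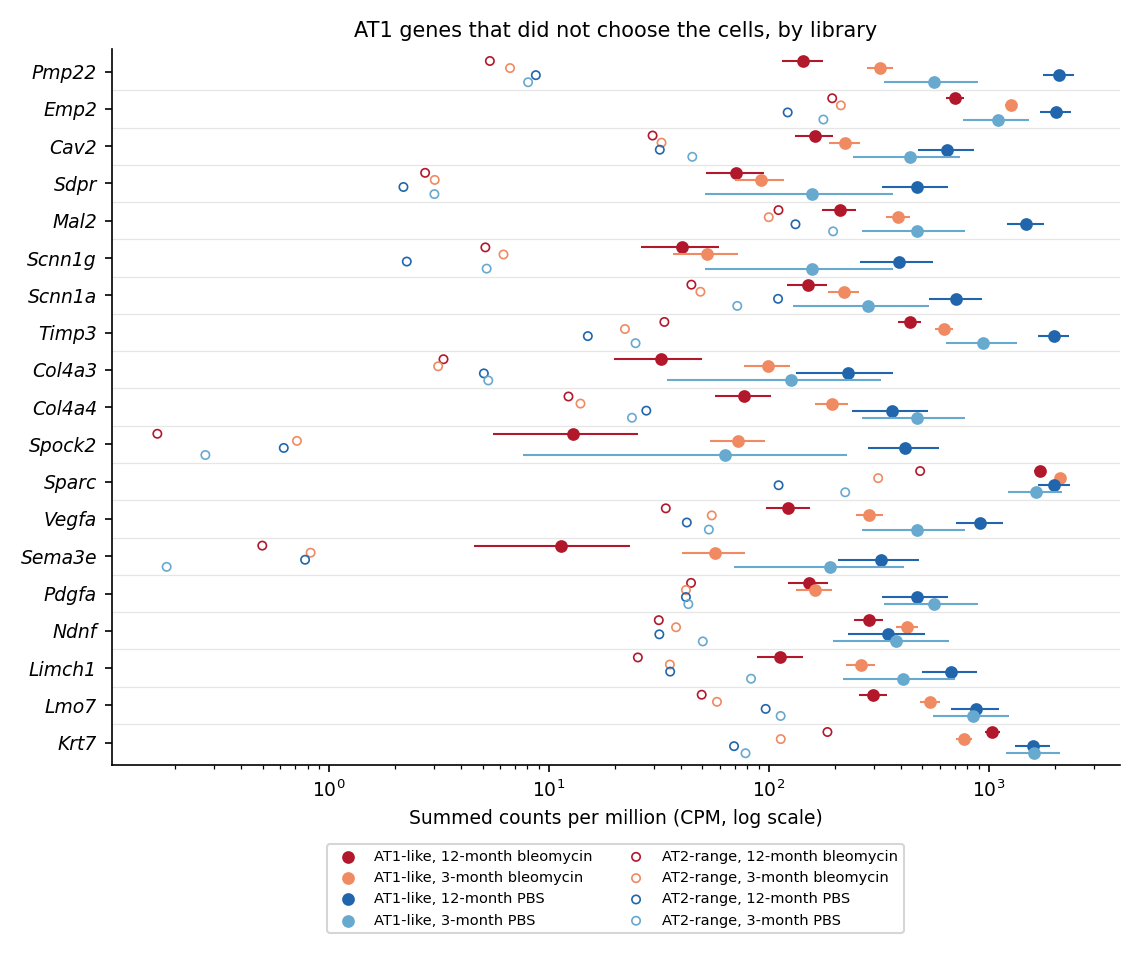
Summed level in CPM (log axis) of 19 AT1 genes that did not set membership, by library; filled points are AT1-like cells with 95% Poisson intervals and open points AT2-range cells of the same library. For Timp3, members had 438 CPM in the 12-month bleomycin library and 1979 CPM in the 12-month PBS library, and AT2-range cells 33.6 CPM in the 12-month bleomycin library and 15.1 CPM in the 12-month PBS library.

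The first comparison between libraries asked how AT1-like cells 30 days after bleomycin differed from those of PBS mice at 12 months of age. AT1 genes were lower after bleomycin, the rule's own genes included. Of the 8 rule genes 7 were at least 2-fold lower and none higher, in a comparison where 843 of 3236 genes were lower (26.1%; 482, or 14.9%, with an interval that left out 0) and 360 higher (11.1%; 190, or 5.87%). The median log2 ratio was -2.0 over the 8, against -0.21 over all genes with 10 or more counts. With median-of-ratios scaling the counts over all genes were 549 lower and 520 higher, the all-gene median was 0.02 and the 5 AT1 lists kept negative medians, from -1.77 to -0.92. Since these 8 genes chose the cells, this is a description of how far the members of each library went past the cutoff.

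Outside the rule, 9 of 12 membrane, caveola and channel genes, 8 of 12 matrix genes, 5 of 10 secreted signals and 8 of 12 cytoskeletal genes were lower in members after bleomycin, and 1 of the secreted signals was higher. Their medians were -1.53, -1.45, -1.19 and -1.15 on the log2 scale. Among Sftpc-low members alone, 38 after bleomycin and 15 with PBS, the lower counts were 8, 9, 5 and 7 of the same lists, with medians of -1.65, -1.94, -1.80 and -1.21. Of all genes counted, 31.1% were lower there. These members still differed in AT2 genes. In them 13 of 19 surfactant and AT2 identity genes were higher and 1 lower after bleomycin, where 16.2% of all 3257 genes counted were higher. Among all members 3 of these were higher and 1 lower. With the cutoff at 1%, which left 32 members after bleomycin and 20 with PBS, the lower counts were 8, 9, 5 and 4, with medians of -1.31, -1.53, -1.63 and -0.73. Of all genes 22.8% were lower at that cutoff. The cytoskeletal count was the nearest to that share. Of the 8 rule genes 6 were still lower (-1.42). Among the 36 members after bleomycin with at most 1 marker of any other class they were 8, 7, 5 and 7, with medians of -1.23, -1.35, -1.23 and -1.12. There 22.5% of all genes were lower. All 4 medians stayed negative in each of these 3 subsets. The part of AT2 transcripts in the result was not tested.

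By role, the caveola and membrane genes Sdpr, Cav2, Mal2 and Gprc5a were lower. Sdpr had 71.1 CPM in members after bleomycin and 471 CPM with PBS, a log2 ratio of -2.73 (95% interval -3.40 to -2.04). Mal2, a raft protein of apical transport, had 210.1 CPM after bleomycin and 1481 CPM with PBS (-2.82, -3.19 to -2.44). Cldn18, the claudin of alveolar tight junctions, had 1594 CPM after bleomycin and 2235 CPM with PBS, a log2 ratio of -0.49 that did not reach 2-fold.

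The subunits of the epithelial sodium channel, which draws fluid out of the airspace, were chosen for description after their values were seen. Scnn1g is on the membrane list, and Scnn1a and Scnn1b are on a list of 10 ion and water transport genes, of which these 2 were lower and none higher (median -0.66), in a comparison where 26.1% of all genes were lower. Scnn1g had 40.4 CPM after bleomycin and 390.4 CPM with PBS (-3.27, -4.10 to -2.45), Scnn1a had 150.3 CPM after bleomycin and 713 CPM with PBS (-2.25, -2.75 to -1.73), and Scnn1b had 88.9 CPM after bleomycin and 323 CPM with PBS (-1.88, -2.58 to -1.11). All 3 subunits of the channel were at least 2-fold lower.

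Among matrix genes the largest difference was in Spock2, a testican proteoglycan, with 12.9 CPM after bleomycin and 417 CPM with PBS (-4.95, -6.34 to -3.86). Col4a3 (32.3 CPM after bleomycin and 229 with PBS, -2.83) and Col4a4 (77.6 CPM after bleomycin and 363 with PBS, -2.24), which assemble into one collagen IV network, were both lower, as was Lama3, a laminin chain (22.6 CPM after bleomycin and 135 with PBS, -2.59). Sparc, a collagen-binding protein, was the most alike of the list at 1705 CPM after bleomycin and 1992 CPM with PBS (-0.23, -0.47 to 0.03). Of the secreted signals, Vegfa had 123 CPM after bleomycin and 915 CPM with PBS (-2.90, -3.39 to -2.40), and Sema3e, a semaphorin that guides vessels, 11.3 CPM after bleomycin and 323 CPM with PBS (-4.77, -6.29 to -3.58). Bmp4 was the one AT1-list gene that was higher, at 283 CPM after bleomycin and 94.2 CPM with PBS (1.49, 0.51 to 2.92).

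Igfbp2 was among the genes with the lowest ratios; Gpm6a, with 0 counts after bleomycin, cannot be ranked against it. Igfbp2 is a secreted binder of insulin-like growth factors that has been used to mark AT1 cells of the terminally differentiated kind in mice. It lies on chromosome 1 at 72824503 to 72852474 on the plus strand (GRCm38). A UMI of Igfbp2 was found in 1 of 65 members at 12 months after bleomycin, 9 of 101 at 3 months after bleomycin, 12 of 20 with PBS at 12 months and 1 of 5 with PBS at 3 months. The UMIs numbered 6 in members at 12 months and 76 at 3 months after bleomycin, against 247 at 12 months and 36 at 3 months with PBS. As summed levels, Igfbp2 had 9.7 CPM in members and 0.166 CPM in AT2-range cells of the 12-month bleomycin library, 111 and 1.05 CPM in those of the 3-month bleomycin library, 3325 and 3.2 CPM in those of the 12-month PBS library, and 1134 and 1.65 CPM in those of the 3-month PBS library. Scaled to 1000 UMIs per cell, the expected share of cells with a UMI was 0.447% of members and 0.0206% of AT2-range cells of the 12-month bleomycin library, 5.38% and 0.11% of those of the 3-month bleomycin library, 53.2% and 0.309% of those of the 12-month PBS library, and 20% and 0.173% of those of the 3-month PBS library. Members of the bleomycin libraries had median depths of 8985 UMIs at 12 months and 5292 at 3 months, and members of the PBS libraries 3000 at 12 months and 6095 at 3 months, so the library with most Igfbp2-positive members was the shallowest.

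Between the 12-month libraries the log2 ratio of Igfbp2 was -8.31 (-9.88 to -7.28). Its single positive member after bleomycin carried 17.1% Sftpc, the AT2 level. Among Sftpc-low members, Igfbp2 was found in 0 of 38 after bleomycin, which allows a share of up to 7.89% of cells with a UMI, and in 8 of 15 with PBS, with 0 and 162 counts, and against a floor of 3 counts in the bleomycin library it was at least 427-fold lower. With the cutoff at 1% it had 0 counts after bleomycin and 247 with PBS, at least 335-fold lower. Within the 12-month PBS library the 12 Igfbp2-positive members had medians of 4.59% of UMIs in the 8 rule genes and 1.31% in Sftpc, and the 8 others 4.14% and 1.66%.

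Promoter sequences are shown for Igfbp2, described above, and Ager, the rule gene with most counts, to let the 2 be compared. They are the 250 bases before the annotated start, from RefSeq on GRCm38.p6, read 5′ to 3′ on the plus strand at chr1:72824230-72824479 and chr17:34597600-34597849, with each GC box (GGGCGG or CCGCCC) in capitals.
Igfbp2: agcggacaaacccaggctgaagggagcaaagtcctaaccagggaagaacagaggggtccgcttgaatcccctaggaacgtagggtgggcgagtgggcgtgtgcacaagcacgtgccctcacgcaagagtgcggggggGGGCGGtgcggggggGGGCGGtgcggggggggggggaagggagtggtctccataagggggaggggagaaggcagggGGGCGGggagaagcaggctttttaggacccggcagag
Ager: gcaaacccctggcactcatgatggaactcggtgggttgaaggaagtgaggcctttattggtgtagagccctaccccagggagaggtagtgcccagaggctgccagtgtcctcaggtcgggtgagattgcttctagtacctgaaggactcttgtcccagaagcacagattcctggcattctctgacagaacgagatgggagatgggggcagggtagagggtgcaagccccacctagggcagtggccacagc
The Igfbp2 promoter held 3 GC boxes and that of Ager none. Of the 54 genes of the 5 AT1 lists, 41 matched the promoter table, with 56 promoters, and 31 of these (55.36%) held a GC box, against 32.74% of all 32851 promoters. The core of the TEAD motif (GGAATG or CATTCC), bound by partners of YAP and TAZ, was in neither of the printed promoters, in 4 of the 56 AT1 promoters (7.143%) and in 12.64% of all. A match is a description of these letters in this window.

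**Figure D3:**
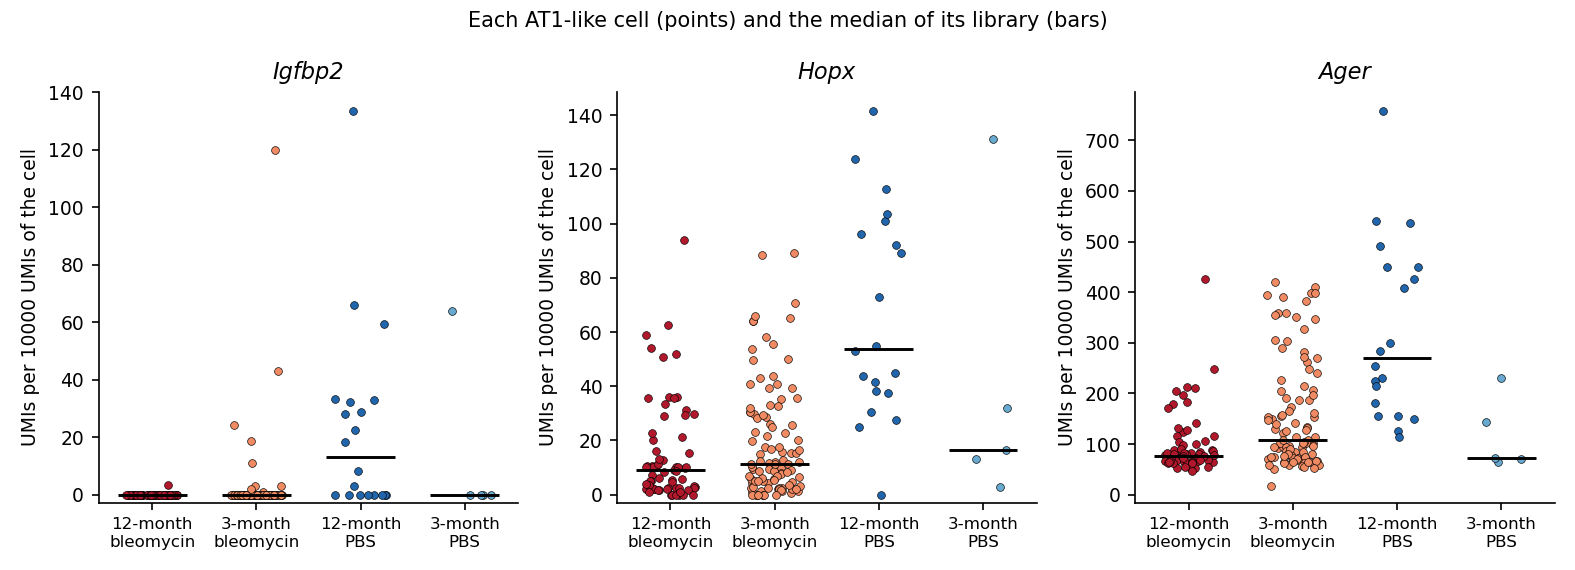
UMIs per 10000 UMIs of Igfbp2, Hopx and Ager in each AT1-like cell, by library; each point is 1 cell and bars are medians. Igfbp2 was above 0 in 1 of 65 cells of the 12-month bleomycin library, 9 of 101 of the 3-month bleomycin library, 12 of 20 of the 12-month PBS library and 1 of 5 of the 3-month PBS library, whereas Ager had a UMI in every member.

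Other genes with the lowest ratios at 12 months were at or near 0 after bleomycin. Gpm6a, a membrane glycoprotein, had 0 counts after bleomycin and 17 counts, 229 CPM, with PBS, at least 47.2-fold lower against the floor of 3 counts. Scel, sciellin, had 1.62 CPM from 1 count after bleomycin and 135 CPM with PBS (-5.87, -11.82 to -3.57). Ankrd1, a target of YAP and TAZ, had 1.62 CPM from 1 count after bleomycin and 135 CPM with PBS (-5.87, -11.82 to -3.57). Of 14 YAP and TAZ genes 9 had the level and share of cells to be counted. Of these 9, 5 were lower, 4 of the 5 with an interval that left out 0, and none was higher. In the same comparison 26.1% of all genes were lower. Tgm2, transglutaminase and a TGF-beta target, had 17.8 CPM after bleomycin and 256 CPM with PBS (-3.82, -5.06 to -2.70). Of the 12 genes listed for TGF-beta signalling and targets, 4 had the level and share of cells to be counted. Of these 4, 2 were higher, 1 of them with an interval that left out 0, and 1 was lower. The list median was -0.99.

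Interferon and antigen presentation genes were higher in members at 12 months after bleomycin. Of 18 interferon response genes 10 had the level and share of cells to be counted. Of these 10, 7 were higher and 1 lower, where 11.1% of all genes counted were higher. Of 14 MHC genes 10 were higher, 8 of them with an interval that left out 0, and none was lower. Ifitm3, an antiviral membrane protein, had 414 CPM after bleomycin and 0 counts with PBS, at least 10.2-fold higher against a floor of 3 counts. H2-Eb1, a class II beta chain, had 514 CPM after bleomycin and 0 counts with PBS, at least 12.7-fold higher. Cd74, the class II invariant chain, had 12311 CPM after bleomycin and 2046 CPM with PBS (2.58, 2.36 to 2.83). The AT2-range cells of the same libraries showed the same direction, with 418 CPM of Ifitm3 after bleomycin and 13.9 with PBS, 533 CPM of H2-Eb1 after bleomycin and 29.6 with PBS, and 11374 CPM of Cd74 after bleomycin and 5337 with PBS. In the 12-month bleomycin library none of the 11 interferon and 14 MHC genes counted was at least 2-fold higher or lower in members than in AT2-range cells. The 8 macrophage markers summed to 80.8 CPM in members after bleomycin and 108 CPM with PBS, and the 5 B cell markers to 139 CPM after bleomycin and 0 CPM with PBS. Among the 36 members with at most 1 marker of any other class, 10 interferon and 9 MHC genes were higher, where 13.4% of all genes were higher. These members had 514 CPM of Ifitm3 and 479 CPM of H2-Eb1. The interferon list had a median of 2.67 over 17 genes, and 0.77 with the 9 genes at 0 in the PBS library set to their bound.

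Injury genes and the keratins Krt8 and Krt18 were also higher, in a comparison where 11.1% of all genes were higher. Of 12 injury and acute-phase genes 6 were higher and none lower at 12 months, among them Lcn2, which binds bacterial iron carriers (1521 CPM after bleomycin and 431 with PBS, 1.80), Retnla, a resistin-like secreted protein (785 CPM after bleomycin and 53.8 with PBS, 3.70) and Hp, haptoglobin (798 CPM after bleomycin and 215 with PBS, 1.85). Among the 36 members with few markers of other cells, 3 of the 12 were higher and Retnla had 90.8 CPM (0.61, -0.77 to 2.73). AT2-range cells showed the same direction from a higher level. The 12 genes summed to 5213.5 CPM in members and 9591.5 CPM in AT2-range cells after bleomycin, and to 1534.6 and 4205.9 CPM with PBS. Of 18 transitional genes 5 were higher and none lower, and 7 were higher among the 36 members with few markers of other cells. Clu, the chaperone clusterin, had 869 CPM after bleomycin and 94.2 CPM with PBS (3.11, 2.15 to 4.53). Krt8 had 739 CPM after bleomycin and 269 CPM with PBS (1.42, 0.81 to 2.18), and Krt18, its partner in the filament, 1005 CPM after bleomycin and 471 CPM with PBS (1.07, 0.60 to 1.63). Krt19, another keratin, ran the other way in the median over members, at 1.43 UMIs per 10000 UMIs after bleomycin and 3.77 with PBS. Cldn4, a claudin of transitional cells, was found in 13 of 65 members at 12 months and 20 of 101 at 3 months after bleomycin and in none of the PBS members, 20 at 12 months and 5 at 3 months, which allows a share of up to 15% and 60% of such cells. Of the 27 Cldn4-positive keratin-high cells of the 12-month bleomycin library 3 were members, and of the 29 of the 3-month bleomycin library 5. Of 15 p53 and senescence genes 7 had the level and share of cells to be counted. Of these 7, 2 were higher and 2 lower, beside 11.1% and 26.1% of all genes counted. The list median was 0.58, or 0.12 with the 2 genes at 0 in the PBS library set to their bound, against -0.21 over all genes. Among the 36 members with few markers of other cells 4 were higher and 1 lower, beside 13.4% and 22.5% of all genes. Cdkn1a, the p21 cell cycle inhibitor, had 591 CPM after bleomycin and 188 CPM with PBS (1.60, 0.88 to 2.54), and Phlda3, another p53 target, 215 CPM after bleomycin and 26.9 CPM with PBS (2.68, 1.12 to 6.06). Of 13 proliferation genes only 1 had the level and share of cells to be counted, and it was neither higher nor lower. One was higher with median-of-ratios scaling or without the Scgb1a1-rich cells.

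Cyp2f2, an airway cytochrome P450 and one of the club markers, was among the genes with the largest positive ratios at 12 months. It had 953 CPM in members after bleomycin and 0 counts with PBS, at least 23.6-fold higher. Genes at 0 counts with PBS cannot be ranked against each other. Without the 3 Scgb1a1-rich cells it had 269 CPM after bleomycin.

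At 3 months the PBS library held 5 members with 31744 counts, so fewer ratios were distinguishable: of 3668 genes 416 were higher (11.3%) and 1108 lower (30.2%) after bleomycin, but intervals left out 0 for only 62 (1.69%) and 221 (6.03%). With median-of-ratios scaling the counts were 672 higher and 767 lower, and the all-gene median was 0.21. The AT1 lists lay nearer to 0 than at 12 months. Of the rule genes 2 of 8 were lower, with a median of -0.63 against -0.13 over all genes, and among the lists outside the rule 3 of 12 membrane genes were lower and 1 higher (-0.21), 1 of 12 matrix genes lower and 2 higher (-0.09), 3 of 10 secreted signals lower (-0.58) and 2 of 12 cytoskeletal genes lower (-0.66). With median-of-ratios scaling no rule gene was lower, and the medians of the membrane and matrix lists were 0.13 and 0.25, so their sign is not settled at 3 months. Ager, the receptor for advanced glycation end products, had 12589 CPM after bleomycin and 10616 CPM with PBS (0.24, 0.09 to 0.41), where at 12 months it had 9583 CPM after bleomycin and 27448 CPM with PBS (-1.52, -1.59 to -1.44). Whether the effect of bleomycin differed between ages was not tested.

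Of 18 transitional genes 1 was higher and 4 lower at 3 months after bleomycin, 3 of the 4 with intervals that left out 0, where at 12 months 5 were higher and none lower. At 3 months 11.3% of all genes were higher and 30.2% lower. Of 18 interferon genes 1 was higher and 2 lower, none with an interval that left out 0. Of 15 immediate early and heat shock genes 2 were higher and 6 lower, and 5 and 4 once scaled by the median of ratios. At 12 months 3 of these were higher and 1 lower. Of 19 surfactant and AT2 identity genes 7 were higher and none lower at 3 months.

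Some single genes had the same direction at both ages. Hopx had 1479 CPM at 3 months after bleomycin and 3528 CPM with PBS (-1.26, -1.54 to -0.96), and -2.11 at 12 months. Of the Hopx UMIs with PBS at 3 months, 66.1% came from 1 of the 5 members, so this ratio rests largely on that cell. Igfbp2 had a ratio of -3.37 (-3.95 to -2.74), which rests on the 36 UMIs of 1 PBS cell, while 1 cell after bleomycin held 47.4% of the 76 UMIs there. Clu had 1264 CPM after bleomycin and 252 CPM with PBS (2.24, 1.34 to 3.54). Lrg1, a leucine-rich glycoprotein of the acute phase, had 455 CPM after bleomycin and 0 counts with PBS, at least 4.81-fold higher, and 470.3 CPM after bleomycin and 162 CPM with PBS at 12 months. AT2-range cells at 3 months had 1856 CPM of Lrg1 after bleomycin and 266 CPM with PBS. Cdkn1a had 478 CPM after bleomycin and 31.5 CPM, 1 count, with PBS (3.34, 1.44 to 9.23). Of 12 injury genes 6 were higher and 1 lower.

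The lowest genes at 3 months rested on a handful of PBS counts. The inducible heat shock genes Hspa1a and Hspa1b had 2.91 and 5.83 CPM after bleomycin, against 189 and 189 CPM with PBS, 6 counts each; they are near-identical copies whose reads the counting may have split. AT2-range cells had 8.49 CPM of Hspa1a after bleomycin and 178 CPM with PBS. Of the AT1 genes, Pdgfa, a growth factor for fibroblasts of the alveolar wall, had 162 CPM after bleomycin and 567 CPM with PBS (-1.84, -2.54 to -1.0), and Ptrf, the cavin of the caveolar coat, 133 CPM after bleomycin and 536 CPM with PBS (-2.05, -2.77 to -1.17).

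**Figure D4:**
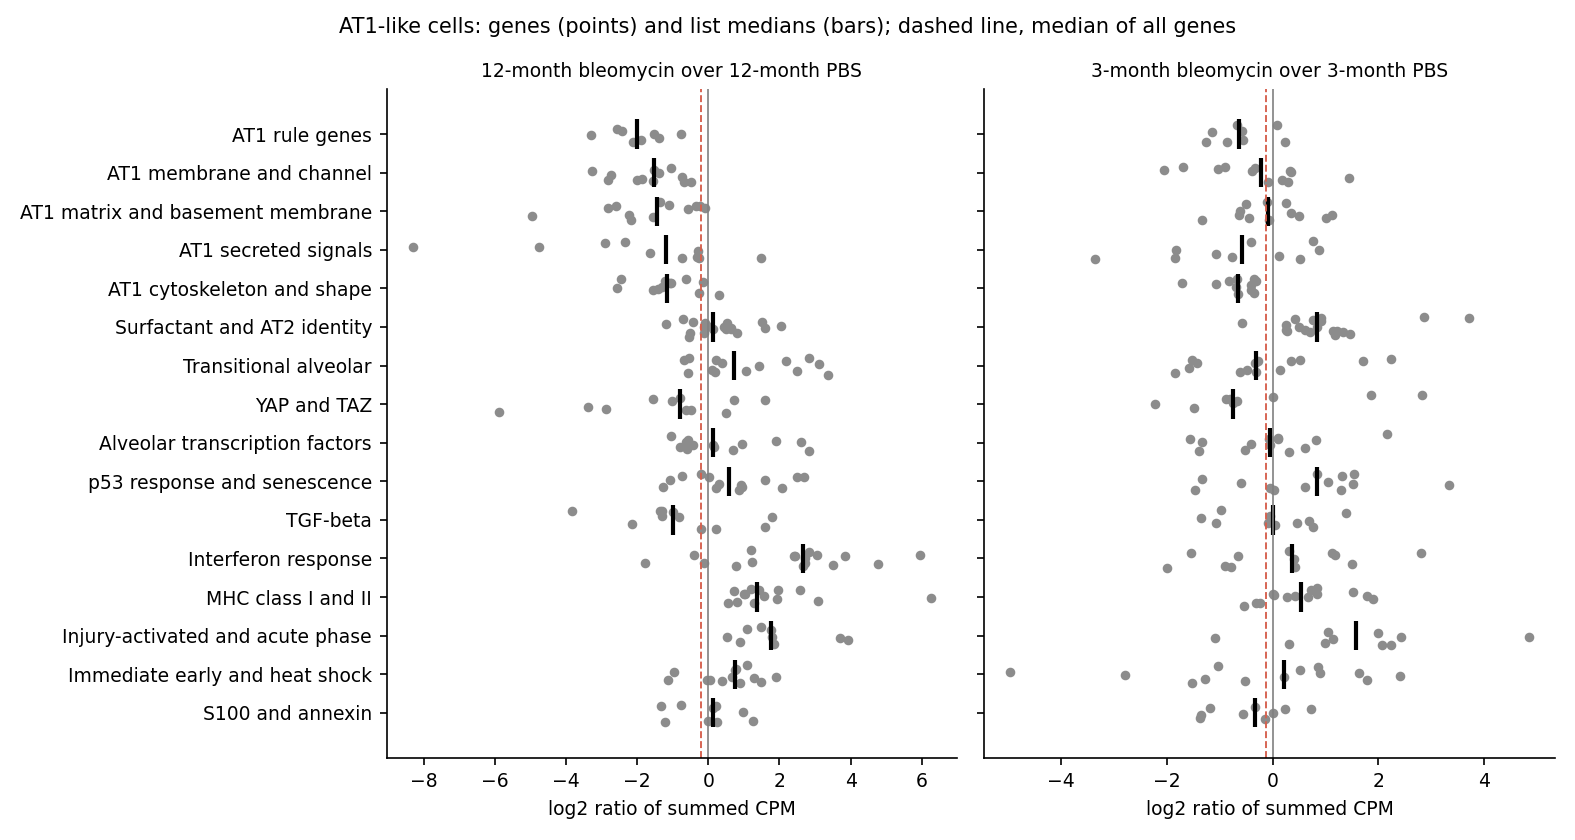
Log2 ratio of bleomycin over PBS in AT1-like cells for the genes of each list, at 12 months (left) and 3 months (right); points are genes, bars list medians and the dashed line the median over all genes (-0.21 and -0.13). At 12 months the AT1 lists have medians between -2.0 and -1.15, and at 3 months between -0.66 and -0.09.

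After bleomycin the members were numerous enough at both ages, 65 at 12 months and 101 at 3 months, to set the ages side by side. Of 2913 genes 64 were higher (2.2%) and 148 lower (5.08%) at 12 months, with a median of -0.14. AT1 genes were lower at 12 months or did not reach 2-fold: 1 of 8 rule genes, none of 12 membrane genes, 4 of 12 matrix genes, 2 of 10 secreted signals and 2 of 12 cytoskeletal genes were lower and none higher, with medians of -0.46, -0.41, -0.69, -0.46 and -0.56. Among Sftpc-low members, 3, 3, 7, 2 and 4 of the same lists were lower, where 351 of all 3246 genes (10.8%) were lower, against 5.08% among all members. Since the 8 rule genes chose the cells, their values describe how far the members of each library went past the cutoff. Between 0.8% and 1% lay 33 of 65 members at 12 months and 23 of 101 at 3 months. The other AT1 lists were compared with members at these different distances from the cutoff.

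Of the genes named by size, Spock2 and Sema3e were lower at 12 months and belong to the AT1 lists. Spock2 had 12.9 CPM at 12 months and 72.9 CPM at 3 months (-2.42, -3.78 to -1.41), and Sema3e 11.3 CPM at 12 months and 56.8 CPM at 3 months (-2.25, -3.73 to -1.15). Hspg2, perlecan of the basement membrane, had 16.2 CPM at 12 months and 71.4 CPM at 3 months (-2.09, -3.29 to -1.14). Dbp, a clock output factor that follows the time of day, had 33.9 CPM at 12 months and 144 CPM at 3 months (-2.06), and AT2-range cells had 37.3 CPM at 12 months and 110.4 CPM at 3 months.

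Interferon and MHC genes were higher at 12 months after bleomycin, with 8 of 18 and 7 of 14 higher and none lower (medians 1.51 and 0.96), as were 3 of 12 injury and 4 of 15 immediate early and heat shock genes. Ifi27l2a had 579 CPM at 12 months and 43.7 CPM at 3 months (3.70, 3.19 to 4.32), H2-Eb1 514 CPM at 12 months and 53.9 CPM at 3 months (3.24, 2.76 to 3.79) and Ly6a 294 CPM at 12 months and 39.3 CPM at 3 months (2.88, 2.31 to 3.54). The chemokines Cxcl1 and Cxcl2, which attract neutrophils, had 85.7 and 66.3 CPM at 12 months, against 7.29 and 4.37 CPM at 3 months. AT2-range cells again showed these differences, with 838 CPM of Ifi27l2a at 12 months and 20.9 at 3 months, and 289.9 CPM of Ly6a at 12 months and 26.2 at 3 months. Scgb1a1 had 22549 CPM at 12 months and 4238 CPM at 3 months (2.41), and -0.13 once the 4 Scgb1a1-rich cells were left out. Transitional and p53 genes did not differ 2-fold between the ages after bleomycin, with none of 18 and none of 15 counted as higher or lower. A subset of members had few markers of other cells, 36 at 12 months and 96 at 3 months. In this subset 5 transitional genes and 1 p53 gene were higher at 12 months, where 120 of all 3023 genes counted (3.97%) were higher. Over all members, Cdkn1a had 591 CPM at 12 months and 478 CPM at 3 months, and Krt8 739 CPM at 12 months and 778 CPM at 3 months.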

How the data were processed

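The 4 10x Chromium 3′ libraries of sorted, lineage-labelled mouse lung cells were read from the authors' deposited matrices of UMI counts, raw whole numbers per gene and cell for 27998 genes. Per the submitters' processing notes, Cell Ranger and Seurat 3.2.2 were used with build mm10; the Cell Ranger version is not given in the sources used here. Per the labels' protocols, 3 mice were pooled per group, so p-values were not computed.

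Members' counts were summed per library and divided by their total to give CPM. Ratios used a prior of 0.5 counts and exact conditional binomial 95% intervals; shares used Clopper-Pearson intervals. These cover counting error only. The code for ratios was tested on simulated data. A gene was counted at 2-fold or more with at least 50 CPM and 20% of cells in the higher group. Unless stated, list counts are out of all genes of the list, while shares of all genes are out of genes that met the limits on level and cells. Members, gene lists and marker lists were chosen with earlier results of these data known. Named genes were the 12 highest and 8 lowest against AT2-range cells by the smallest difference of the 4 libraries, and the 12 highest and 12 lowest of each comparison between libraries among those whose interval left out 0, without mitochondrial, ribosomal, predicted and sex-linked genes and markers of non-epithelial cells; beside them stand up to 6 genes of each of 18 lists, and a few genes of a list outside this rule, chosen after their values were seen. Of the gene IDs, 27722 matched the GENCODE annotation on GRCm38 used for coordinates. Promoters were RefSeq's. Doublets were a preset number of cells per library with the highest Scrublet scores, in scanpy 1.11.5 under Python 3.11.15, numpy 2.4.6, scipy 1.17.1 and pandas 2.3.3. Alternatives changed the cutoff, the filters, the scaling, the weight of cells and the members kept.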

Additional observations from a re-analysis of the deposited data

Results flagged for a closer look

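In 2 genes bleomycin and PBS members differed in opposite directions at the ages of 12 and 3 months, and the difference between ages was not tested. The log2 ratio of bleomycin over PBS for Sfn, stratifin, was 3.37 at 12 months, from 1 PBS count, and -1.84 at 3 months. That of Chia1, acidic chitinase, was 1.77 at 12 months and -1.08 at 3 months, and the second value turned positive among Sftpc-low members. The 3-month values rest on 5 PBS cells.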

How the results depend on the processing

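No paired analysis was possible because each group is 1 library, so no replicate could be left out either. The share of members was 4.11% in the 12-month bleomycin, 5.37% in the 3-month bleomycin and 0.919% in the 3-month PBS library with a cutoff of 0.6%, and 1.07% in the 12-month and 2.97% in the 3-month bleomycin library with 1%, against 0.729% and 0.167% in the 12-month and 3-month PBS libraries. With a minimum of 200 CPM the genes higher and lower after bleomycin were 107 and 167 at 12 months and 60 and 141 at 3 months; with no minimum beyond 10 counts, 964 and 1340 at 12 months and 862 higher at 3 months. Median-of-ratios scaling gave 549 lower at 12 months and 672 higher at 3 months, and Sftpc-low members 2189 lower at 3 months. Between 12 and 3 months after bleomycin, higher and lower genes numbered 26 and 11 at 200 CPM, 271 and 865 with no minimum, 114 and 351 in Sftpc-low members, 235 lower with the 1% cutoff and 260 lower with every cell weighing the same. Leaving out members with more than 1 marker of another class gave 120 higher. Against AT2-range cells, median-of-ratios scaling gave 100 higher and 77 lower genes, the 200 CPM minimum 47 higher, and Sftpc-low members 252 higher and 57 lower. Of the single genes, 3 reversed. Fabp5, which binds fatty acids, was 0.70 at 12 months and Chia1 1.07 at 3 months in Sftpc-low members, and Scgb1a1 was -0.13 between the ages without Scgb1a1-rich members; the causes were not tested. Of the other single-gene values 5463 kept their size and direction and 429 moved. Leaving out Scgb1a1-rich members, or those with more than 1 marker of another class, and choosing AT2-range cells by Sftpc alone were added after seeing the data. Depth limits the PBS values, where 1 count in the members stood for 13.5 CPM at 12 months and 31.5 CPM at 3 months.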
